A study of Mus musculus with 10 samples.

Results

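The T cell receptor beta locus was read segment by segment in RNA from tumor-draining lymph nodes (TDLN) of mice treated by microwave ablation (MWA) with or without 2-deoxy-D-glucose (2DG). Members were chosen by name alone: every gene whose symbol starts with Trbv, Trbd, Trbj or Trbc. Of the 33585 genes listed in each library, 46 met that rule, namely 28 variable (V), 2 diversity (D), 14 joining (J) and 2 constant (C) segments, of the 53 that the reference annotation holds. Trbv7, Trbv8, Trbv11, Trbv18, Trbv25, Trbv27 and Trbv28 were not analysed here. Members averaging 1 FPKM or more across all 10 libraries were tested, and 37 passed: 19 V, 2 D, 14 J and 2 C. FPKM is the number of fragments scaled to transcript length and to the mapped fragments of the library.

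In both groups, female BALB/c mice aged 6 weeks carried the BALB/c-derived 4T1 mammary carcinoma in the mammary fat pad, and the tumor was ablated completely on day 10. The MWA+2DG group (n = 5 libraries) then received 500 mg/kg 2DG, a glucose analogue that blocks glycolysis, by intraperitoneal injection every 2 days. The MWA group (n = 5 libraries) received PBS, the vehicle, in its place. Nodes were taken on day 15, and whole-node RNA was sequenced, so T cells were read together with B cells, myeloid cells and stroma. In such bulk samples fewer T cells and less receptor RNA per T cell cannot be told apart. Both groups carried the ablated tumor, and mice without ablation or without a tumor were not analysed here.

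A T cell builds its receptor beta chain by joining 1 V, 1 D and 1 J segment of this locus and by splicing the joined exon to 1 of the C genes. The locus carries a long row of V segments, followed by a first cluster (Trbd1, the Trbj1 segments and Trbc1) and a second cluster (Trbd2, the Trbj2 segments and Trbc2), with Trbv31 lying beyond Trbc2 in the opposite orientation. A finished beta chain RNA therefore holds 1 of the C genes, while its V and J segments differ between T cells. FPKM does not show how many reads of a segment came from joined RNA, and this was not tested. Over the 10 libraries the summed segments averaged 312 FPKM (V), 528 FPKM (J) and 600 FPKM (C). The beta chain pairs with the alpha chain (Trac) and needs the CD3 chains to reach the cell surface.

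The J segments are shown because the comparison below turned on one of them, Trbj2-6, and on its neighbours. The mature receptor keeps a Phe-Gly-X-Gly motif encoded in the J segment, and capitals mark the match to its codons, TTN, GGN, NNN and GG, read without a gap on the coding strand. Of the 14 J segments, 11 held a match on that strand and 0 on the other. Among 50-base windows of RefSeq promoters 2.51% held a match when both strands were searched. Trbj1-6, Trbj1-7 and Trbj2-6 held none, and the annotation calls Trbj2-6 a pseudogene. All bases are from the GRCm38 reference of strain C57BL/6, not from these BALB/c libraries.
Trbj2-5: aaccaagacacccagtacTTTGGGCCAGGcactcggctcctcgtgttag
Trbj2-6: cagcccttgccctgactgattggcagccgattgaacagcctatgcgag
Trbj2-7: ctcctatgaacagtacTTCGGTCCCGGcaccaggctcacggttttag
Trbj2-1: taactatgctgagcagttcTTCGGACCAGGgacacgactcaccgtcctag
Trbj1-1: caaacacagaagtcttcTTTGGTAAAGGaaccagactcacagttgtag
Trbj1-2: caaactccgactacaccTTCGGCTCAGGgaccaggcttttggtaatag
Trbj1-6: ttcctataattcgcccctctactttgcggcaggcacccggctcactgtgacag
Trbj1-7: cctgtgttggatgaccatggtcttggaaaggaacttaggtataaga

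The D segments are shorter still, at 12 and 14 bases, and are shown for their length: a D segment is far shorter than a sequenced fragment, so its FPKM rests on fragments that also cover its neighbours. The J segments span 46 to 53 bases, against 335 to 566 bases for the V transcripts annotated as genes and 692 to 737 bases for the C genes. FPKM corrects for length, but for segments this short the correction depends on how the quantification treated fragments that overhang them, which the sources used here do not give.
Trbd1: gggacagggggc
Trbd2: gggactgggggggc

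The ends of 5 V segments show how alike the members of 1 family are where they meet the D segment. These are the last 45 bases of each, with capitals on TGTGCC, the codons of the conserved cysteine and the alanine that follows it. Among the 28 V segments 18 held TGTGCC in these bases on the coding strand. Among promoter windows of that length 2.37% held it when both strands were searched. Other codons for alanine were not searched: Trbv17, Trbv21 and Trbv29 held TGTGCT and Trbv16 held TGTGCA, which encode the same amino acids. Over the last 270 bases Trbv13-2 and Trbv13-3 were 91.1% identical, Trbv13-1 and Trbv13-2 87.8%, and Trbv12-1 and Trbv12-2 88.5%. Over the whole transcripts the longest shared runs of these pairs were 50, 34 and 44 bases. Trbc1 and Trbc2 shared a run of 259 bases. A read that lies wholly within such a run fits both genes, so the split within a family and between the C genes can be less certain than the family total. How many reads did so was not tested.
Trbv13-1: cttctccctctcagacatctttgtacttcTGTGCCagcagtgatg
Trbv13-2: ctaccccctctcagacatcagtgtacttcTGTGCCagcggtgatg
Trbv13-3: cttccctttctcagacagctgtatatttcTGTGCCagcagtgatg
Trbv12-1: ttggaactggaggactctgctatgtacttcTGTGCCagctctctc
Trbv12-2: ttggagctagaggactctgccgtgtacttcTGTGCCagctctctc

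Libraries fell into 2 sets that cut across the treatment. The first principal component of all tested genes took 36.4% of the variance and placed replicates 1 and 2 of both groups between -23.4 and -18.9, and replicates 3 to 5 between -1.58 and 33.5. Alb, which encodes serum albumin and is made by liver, was listed at 0 in MWA replicates 1 and 2 and below 0.05 FPKM in the same replicates of MWA+2DG, and ranged from 35.1 to 101.9 FPKM in the other 6 libraries. The summed FPKM of each library lay between 312143 and 359984. With the limma test over all 13334 tested genes, 0.0% passed an adjusted p of 0.05, and the smallest adjusted p was 0.995. At an unadjusted p of 0.05 the share was 4.25%, or 567 genes. Calls below therefore follow the rule of the study, an unadjusted p below 0.05 with a log2 fold change beyond 0.25. That rule called 0.952% of all tested genes higher and 1.87% lower in MWA+2DG.

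Across the locus, 1 of the 37 tested members was called higher in MWA+2DG (Trbj2-6) and 0 were called lower. The count was 2 (Trbj1-5 and Trbj2-6) after rescaling each library to the same summed FPKM, quantile normalization or median ratio scaling, and also with a replicate block. Of the V segments 0 of 19 were called, of the D segments 0 of 2 and of the C genes 0 of 2. The log2 fold change was above 0 for 34 of 37 members, where 52.6% of all tested genes lay above 0. Its median was 0.12 over the members, with a range from -0.12 (Trbv30) to 0.38 (Trbj2-6), against a median of 0.01 over all genes. The members are not independent of each other, since they are read from the same T cells in the same libraries. Their standard errors ran from 0.09 (Trbj2-6) to 0.29 (Trbv14).

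**Figure D1:**
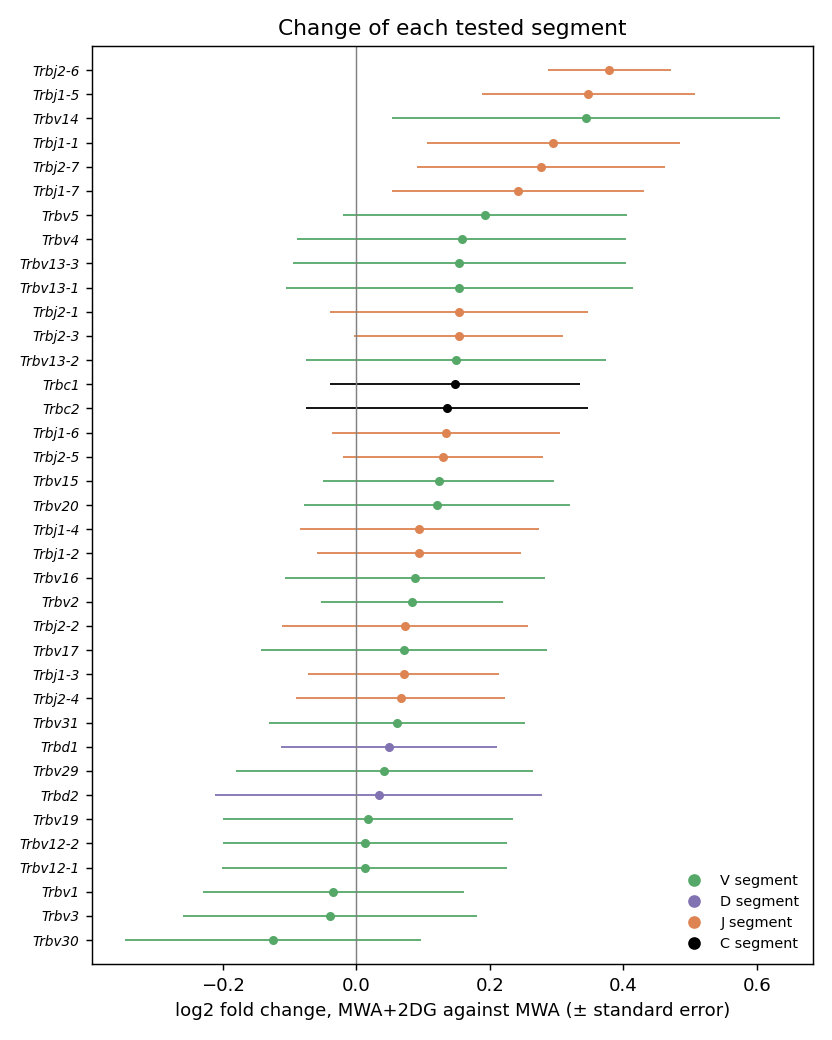
Log2 fold change of MWA+2DG against MWA (x axis) for the 37 tested segments (y axis, sorted), on log2(FPKM + 1) values; bars are limma standard errors and colours mark V, D, J and C segments. Points right of 0 number 34, and Trbj2-6 at 0.38 has the shortest bar.

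Trbc2, the constant gene of the second cluster and the most abundant member, measured 507, 401, 266, 248 and 380.3 FPKM in MWA replicates 1 to 5. In MWA+2DG replicates 1 to 5 it measured 449, 457, 404, 367 and 268 FPKM. The groups overlapped over nearly their whole range, with the highest library in MWA and MWA+2DG replicate 5 as low as the lowest MWA libraries. The means were 389 ± 76.9 FPKM (SD, n = 5) in MWA+2DG and 360.4 ± 106 FPKM in MWA, which gave a log2 fold change of 0.14 (limma standard error 0.21).

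Trbc1, the constant gene of the first cluster, followed the same libraries at a lower level. It measured 283, 244, 169, 153 and 226 FPKM in MWA and 272, 242, 274, 225 and 167 FPKM in MWA+2DG, and its log2 fold change was 0.15 with a standard error of 0.19. The portion of Trbc1 in the sum of the C genes was 37.8% ± 2.08 in MWA+2DG and 37.6% ± 1.15 in MWA (SD, n = 5), so that the split between the clusters differed by less than its spread. Summed over Trbc1 and Trbc2, replicates 1 and 2 averaged 714 FPKM and replicates 3 to 5 averaged 524 FPKM.

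The FPKM of the V segments was very uneven in both groups. Trbv13-2, the segment of the classical Vβ8.2 chain, was the highest, at 62.2, 46.9, 34.0, 30.4 and 46.9 FPKM in MWA and 65.3, 61.7, 41.2, 43.1 and 33.6 FPKM in MWA+2DG. Trbv13-1 (Vβ8.3) came next, at 46.0, 38.9, 25.2, 26.0 and 34.9 FPKM in MWA and 50.1, 53.2, 38.3, 35.3 and 19.6 FPKM in MWA+2DG. For these segments the groups overlapped: replicates 1 and 2 were high in either group, and MWA+2DG replicate 5 was among the lowest libraries. Together with Trbv13-3 (Vβ8.1), the Trbv13 family took 34.2% ± 1.27 of the summed V segment FPKM in MWA+2DG and 33.3% ± 2.80 in MWA (SD, n = 5).

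Trbv5, Trbv1 and Trbv31 completed the 5 highest V segments. Trbv5 (Vβ1) measured 30.0, 30.1, 18.0, 23.9 and 27.5 FPKM in MWA and 42.0, 34.1, 31.5, 26.3 and 17.9 FPKM in MWA+2DG. Trbv1 (Vβ2), the first segment of the locus, measured 30.8, 22.9, 19.98, 18.7 and 28.3 FPKM in MWA and 30.8, 28.9, 22.3, 22.0 and 15.1 FPKM in MWA+2DG. Trbv31 (Vβ14), the inverted segment at the far end, measured 23.0, 27.3, 19.3, 16.0 and 25.8 FPKM in MWA and 23.2, 29.6, 26.0, 24.1 and 14.5 FPKM in MWA+2DG. In all of them MWA+2DG replicate 5 was the lowest library, and their log2 fold changes were 0.19, -0.03 and 0.06 with standard errors of 0.21, 0.20 and 0.19. Neighbours in this order had close means: the mean over 10 libraries was 28.1 FPKM for Trbv5, 24.0 for Trbv1 and 22.9 for Trbv31, each within 1 SD of the next. That SD is the spread between libraries, and the segments were not tested against each other within libraries. High and low segments were mixed along the chromosome, with Trbv12-1 directly before Trbv13-1 and Trbv12-2 between Trbv13-1 and Trbv13-2.

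**Figure D2:**
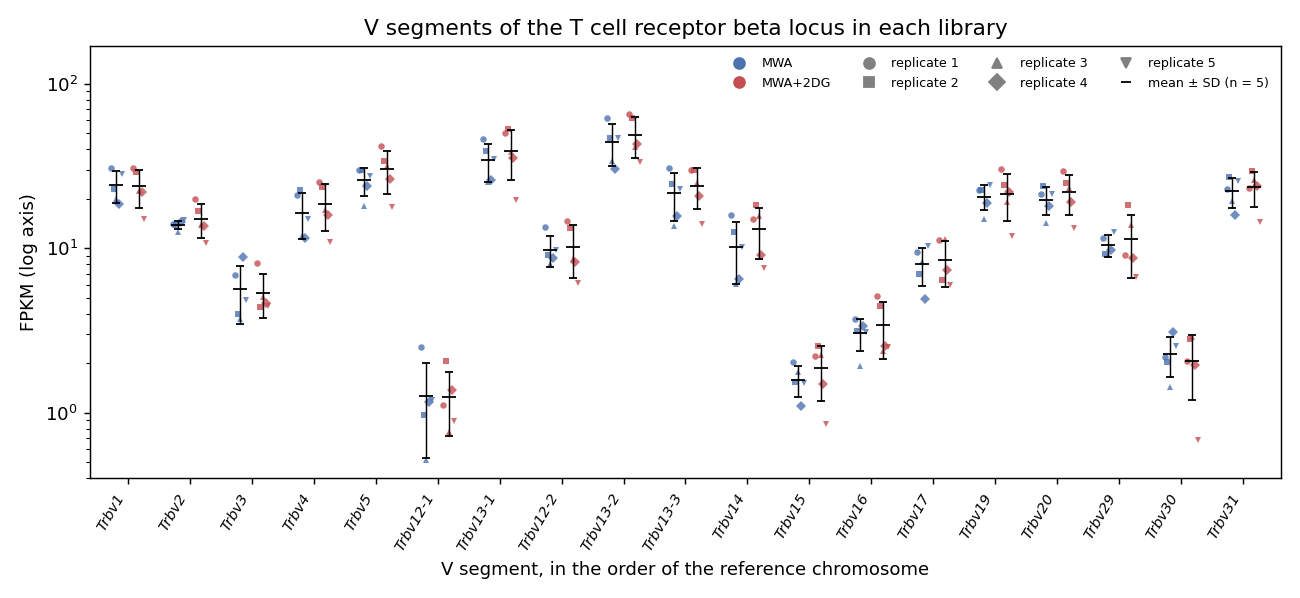
FPKM (log axis) of the 19 tested V segments in the order of the reference chromosome, for MWA and MWA+2DG; symbols mark replicate numbers and black bars give the mean ± SD of 5 libraries. The groups overlap at every segment, from Trbv12-1 near 1.27 FPKM to Trbv13-2 at 44.1 FPKM in MWA.

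At the other end, 9 V segments stayed below the mean of 1 FPKM. These were the 6 V segments that GENCODE lists as pseudogenes (Trbv6, Trbv9, Trbv10, Trbv12-3, Trbv22 and Trbv24), of which Trbv9 was listed at 0 in every library, and Trbv21, Trbv23 and Trbv26, which it lists as genes. RefSeq differs for a pair of them: it calls Trbv24 a V segment, here at a mean of 0.945 FPKM, and Trbv29 a pseudogene, here at 10.9 FPKM.

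BALB/c mice carry endogenous mammary tumor virus superantigens, which are known to remove T cells bearing Vβ3, Vβ5, Vβ11 and Vβ12 during thymic selection. Their segments (Trbv26, Trbv12-1, Trbv12-2, Trbv16 and Trbv15) are described for that reason. No strain without these superantigens was analysed here, so low values cannot show that such cells were removed. Trbv30, which is not on the list, averaged 2.17 FPKM over the 10 libraries, below Trbv16 at 3.23 FPKM. Trbv26 (Vβ3) measured 1.02, 0.481, 0.269, 0.652 and 0.427 FPKM in MWA and 1.59, 0.975, 0.201, 0.116 and 0.848 FPKM in MWA+2DG. Trbv12-1 (Vβ5.2) measured 2.498, 0.965, 0.519, 1.16 and 1.20 FPKM in MWA and 1.11, 2.08, 0.768, 1.38 and 0.892 FPKM in MWA+2DG. Both were low in every library, and the groups overlapped.

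Trbv15 (Vβ12) and Trbv16 (Vβ11) were likewise low. Trbv15 measured 2.03, 1.54, 1.76, 1.11 and 1.51 FPKM in MWA and 2.23, 2.54, 2.25, 1.502 and 0.849 FPKM in MWA+2DG. Trbv16 measured 3.74, 3.14, 1.92, 3.37 and 3.10 FPKM in MWA and 5.12, 4.44, 2.37, 2.54 and 2.51 FPKM in MWA+2DG. Trbv12-2 (Vβ5.1) stood above the rest of this list, at 13.5, 9.06, 8.00, 8.76 and 9.77 FPKM in MWA and 14.7, 13.2, 8.65, 8.31 and 6.18 FPKM in MWA+2DG, although its end differs little from that of Trbv12-1 as shown above. Without Trbv12-2 the list took 2.22% ± 0.364 of the summed V segment FPKM in MWA+2DG and 2.18% ± 0.336 in MWA (SD, n = 5), and with it 5.31% ± 0.658 and 5.51% ± 0.671. None of the 4 tested segments of the list was called.

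Each V segment was also expressed as a share of the summed V segment FPKM, which sets aside the level of that sum in a library. The sum itself measured 372, 325, 226, 242 and 319 FPKM in MWA and 418, 403, 322, 289 and 200.3 FPKM in MWA+2DG, so the groups overlapped from end to end. By the exact two-sided permutation test of shares over libraries, 0 of the 19 tested V segments reached p = 0.05, where 1.48% of all tested genes did relative to the same sum. Shares of 0 segments separated the groups, against 0.12% of all genes. The V segments make up the sum and the other genes do not, so these figures are not like for like. With 5 libraries a group the smallest p the permutation test allows is 0.00794.

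The share of Trbv1 differed most, at 8.29%, 7.06%, 8.85%, 7.71% and 8.86% in MWA and 7.35%, 7.17%, 6.94%, 7.61% and 7.53% in MWA+2DG. Every MWA+2DG library lay below every MWA library but replicate 2. The mean was lower by 0.836 percentage points in MWA+2DG (7.32% ± 0.272 against 8.16% ± 0.774; SD, n = 5; exact permutation p = 0.0714). Leaving out MWA replicate 2 took it to -1.11 percentage points (exact permutation p = 0.00794), so that 1 library decides on which side of the threshold this share lies.

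Of the other shares, Trbv14 (Vβ13) had the largest positive difference. It took 4.28%, 3.87%, 2.67%, 2.69% and 3.18% in MWA and 3.59%, 4.52%, 4.87%, 3.16% and 3.78% in MWA+2DG, a difference of 0.645 percentage points (exact permutation p = 0.214, n = 5). Its FPKM values were 15.9, 12.6, 6.04, 6.51 and 10.2 in MWA and 15.0, 18.2, 15.7, 9.13 and 7.57 in MWA+2DG. The groups overlapped on either scale. Trbv5 and Trbv13-2 differed by 0.510 and 0.389 percentage points, but the direction of Trbv13-2 turned without MWA replicate 4 (-0.149) and without MWA+2DG replicate 5 (-0.029).

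On the negative side stood Trbv19 (Vβ6), at -0.450 percentage points, and Trbv3 (Vβ16), at -0.285 percentage points, which became 0.134 without MWA replicate 4. Trbv19 measured 22.5, 22.5, 15.1, 18.9 and 24.1 FPKM in MWA and 30.5, 24.3, 19.0, 22.1 and 11.9 FPKM in MWA+2DG. Trbv3 measured 6.85, 3.98, 3.70, 8.85 and 4.84 FPKM in MWA and 8.16, 4.37, 5.08, 4.65 and 4.45 FPKM in MWA+2DG. Trbv3 was highest in MWA replicate 4, the library with the least C gene RNA of its group (400.7 FPKM), and in MWA+2DG replicate 1, the library with the most of its group (721 FPKM).

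Whole V profiles were as unlike within a group as between groups. The distance between a pair of libraries, taken as the percentage of the V profile that would have to be moved to turn one into the other, had a median of 8.19 percentage points within MWA, 6.59 within MWA+2DG and 7.08 between the groups. The effective number of V segments, the exponential of the Shannon entropy of the shares, was 14.6 ± 0.306 in MWA+2DG and 14.7 ± 0.397 in MWA (SD, n = 5). The 5 highest segments took 50.8% ± 1.04 and 50.6% ± 1.77 of the sum.

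**Figure D3:**
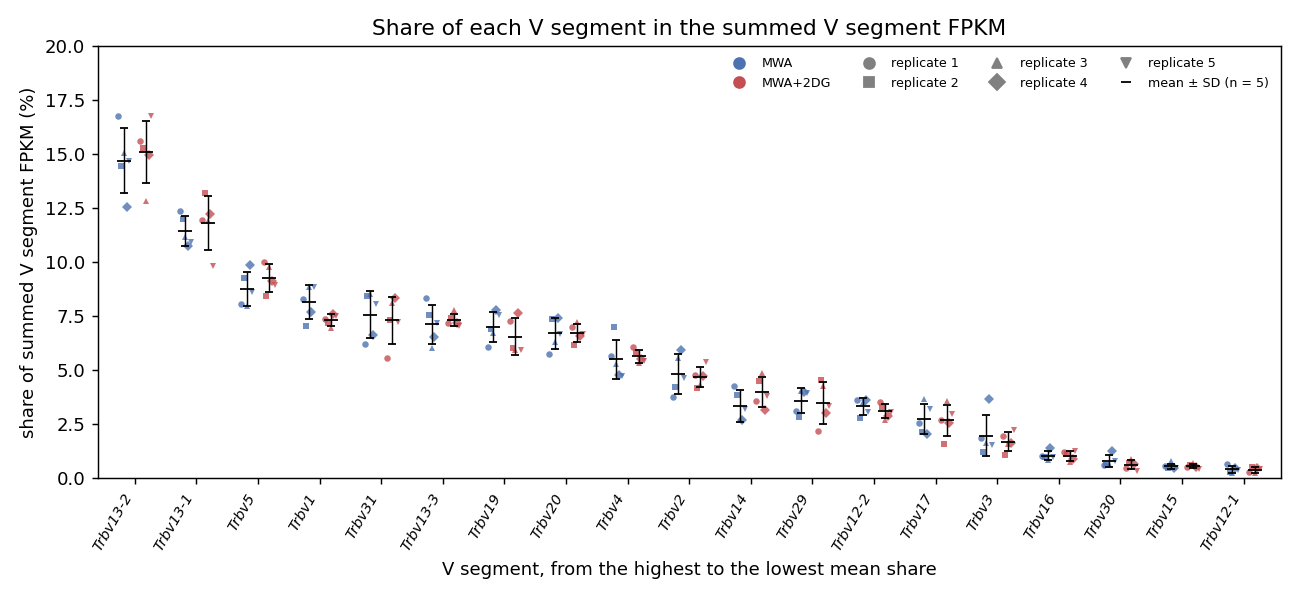
Share of each tested V segment in the summed V segment FPKM (y axis, percent) for MWA and MWA+2DG, with segments sorted by mean share; symbols mark replicate numbers and black bars give the mean ± SD of 5 libraries. Trbv1 shows the largest difference of means, 8.16% in MWA and 7.32% in MWA+2DG, with MWA replicate 2 among the MWA+2DG libraries.

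The D segments, which contribute the middle of the third complementarity-determining region, did not separate. Trbd1 measured 29.6, 32.8, 22.2, 24.1 and 28.9 FPKM in MWA and 36.8, 32.5, 29.7, 25.2 and 19.9 FPKM in MWA+2DG. Trbd2 measured 45.6, 33.5, 25.8, 23.1 and 51.8 FPKM in MWA and 47.5, 35.5, 40.2, 34.7 and 22.7 FPKM in MWA+2DG. The highest Trbd1 library was in MWA+2DG and the highest Trbd2 library in MWA, with log2 fold changes of 0.05 and 0.03 and standard errors of 0.16 and 0.24.

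Trbj2-6, the pseudogene of the second J cluster, was the member called. It measured 19.1, 16.3, 20.8, 19.8 and 18.8 FPKM in MWA and 26.3, 28.4, 24.3, 24.9 and 21.1 FPKM in MWA+2DG. All 5 MWA+2DG libraries lay above all 5 MWA libraries, although MWA+2DG replicate 5 cleared MWA replicate 3 by little. The groups did not overlap, in either direction, for 0.802% of all tested genes and 1 of the 37 members. Trbj2-6 rose by a log2 fold change of 0.38 with a standard error of 0.09 (limma, unadjusted p = 0.00175, adjusted p = 0.995), from a mean of 19.0 ± 1.68 to 25.0 ± 2.69 FPKM (SD). The exact two-sided permutation test over libraries gave p = 0.00794 (n = 5 a group), the smallest it allows, where 4.45% of all tested genes reached p = 0.05. The call was kept in all 10 fits that each left out 1 library, with log2 fold changes from 0.33 to 0.44.

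Trbj2-6 varied least of the tested members between the replicate sets, with a mean of replicates 1 and 2 that was 1.04 times that of replicates 3 to 5. As a share of the summed J segment FPKM it was 4.53% ± 0.515 in MWA+2DG and 3.91% ± 0.705 in MWA (SD, n = 5), a difference of 0.617 percentage points that did not pass the exact permutation test (p = 0.143). Its ratio to Trbj2-5, the J segment just before it, was 0.525 ± 0.0589 in MWA+2DG and 0.441 ± 0.0825 in MWA, and its ratio to Trbj2-7, the one just after it, was 0.312 ± 0.0474 and 0.292 ± 0.0736. Both ratios overlapped between the groups. Whether its reads came from joined receptor RNA or from RNA of the unjoined locus was not tested.

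The 13 J segments annotated as genes had a higher mean in MWA+2DG, and 0 of them were called on the values as deposited. Trbj2-7, the most abundant, measured 82.3, 61.8, 58.3, 51.5 and 84.0 FPKM in MWA and 102, 106, 73.8, 67.9 and 62.4 FPKM in MWA+2DG. Trbj2-1 measured 86.1, 72.0, 47.2, 46.8 and 77.8 FPKM in MWA and 87.1, 79.2, 73.4, 67.1 and 53.9 FPKM in MWA+2DG. In Trbj2-7 MWA+2DG replicates 1 and 2 stood above every MWA library, while only replicate 1 did so in Trbj2-1. Their log2 fold changes were 0.28 and 0.15 with standard errors of 0.19.

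In the first J cluster Trbj1-2 and Trbj1-1 were the highest. Trbj1-2 measured 50.8, 40.6, 34.3, 39.2 and 45.5 FPKM in MWA and 59.0, 45.7, 49.8, 38.9 and 33.7 FPKM in MWA+2DG. Trbj1-1 measured 41.6, 33.4, 27.6, 29.4 and 46.0 FPKM in MWA and 58.8, 49.5, 44.3, 38.1 and 30.1 FPKM in MWA+2DG. The groups overlapped in each, and the log2 fold changes were 0.09 and 0.29 with standard errors of 0.15 and 0.19. Without MWA+2DG replicate 5 the call rule was met by 3 members (Trbj1-1, with a log2 fold change of 0.42, Trbj1-5 and Trbj2-6), and without MWA replicate 3 or MWA replicate 4 by 2 members (Trbj1-5 and Trbj2-6). Trbj1-5 measured 17.7, 17.6, 22.3, 22.8 and 14.8 FPKM in MWA and 32.02, 27.9, 23.2, 22.2 and 18.0 FPKM in MWA+2DG, with a log2 fold change of 0.35 and a standard error of 0.16. It was also called under all 3 other scalings and with the replicate block.

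As shares of the J sum, 0 of 14 J segments reached p = 0.05 by the exact permutation test, where 7.93% of all tested genes did relative to that sum. The J segments make up that sum and the other genes do not, so these figures are not like for like. Differences in share ran from -0.519 percentage points (Trbj2-4) to 1.02 percentage points (Trbj2-7). The first cluster took 39.8% ± 1.60 of the J sum in MWA+2DG and 40.0% ± 2.94 in MWA (SD, n = 5). Trbj1-7, which lacks the motif, was the lowest J segment at a mean of 16.5 FPKM, and Trbj1-6, which also lacks it, reached 27.9 FPKM.

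**Figure D4:**
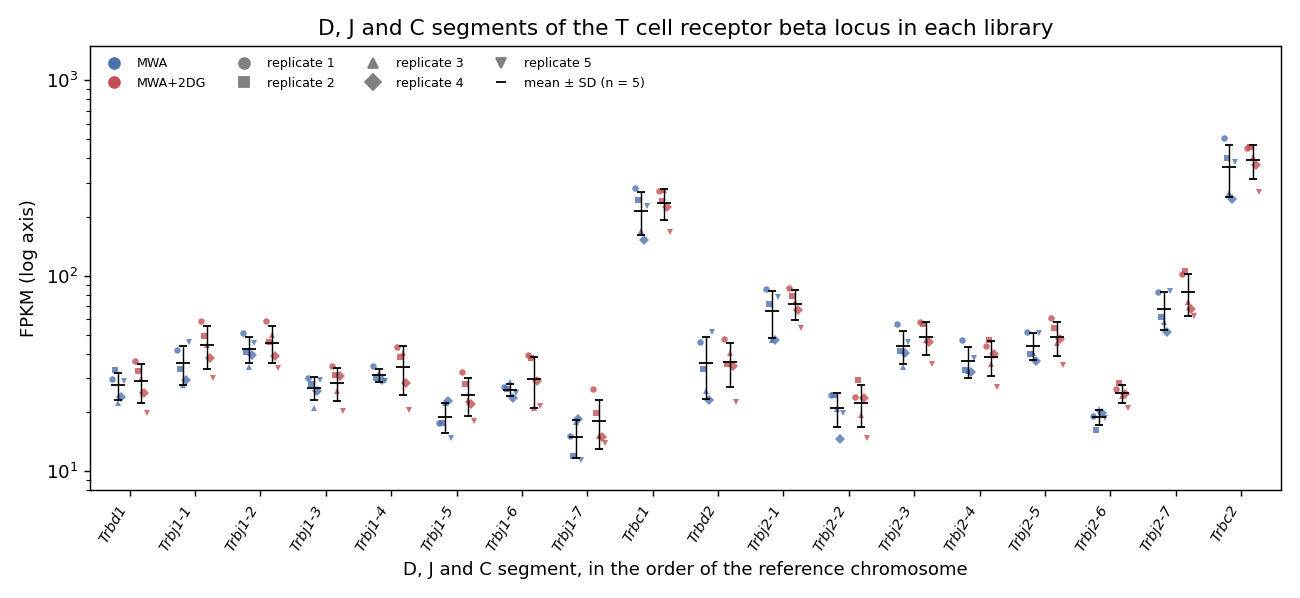
FPKM (log axis) of the D, J and C segments in the order of the reference chromosome, for MWA and MWA+2DG; symbols mark replicate numbers and black bars give the mean ± SD of 5 libraries. Trbj2-6 is the segment at which the groups do not overlap (19.0 and 25.0 FPKM on average), and Trbc1 and Trbc2 lie above all others.

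The locus differed more between the replicate sets than between the treatments. All 37 tested members had a higher mean in replicates 1 and 2 than in replicates 3 to 5, as did 69.4% of all tested genes. The ratio of the set means had a median of 1.31 over the members and 1.07 over all genes, and ran from 1.04 (Trbj2-6) to 1.69 (Trbv12-1). Within replicates 1 and 2 the median log2 fold change of the members between MWA+2DG and MWA was 0.23, and within replicates 3 to 5 it was 0.04. The summed V segments were higher in MWA+2DG in both sets, by 62.8 and 7.72 FPKM, and so were the summed J segments, by 142 and 20.3 FPKM. The summed C genes differed by -7.10 FPKM in replicates 1 and 2 and by 87.3 FPKM in replicates 3 to 5, and the summed D segments by 5.37 and -1.16 FPKM, so that these sums turned direction. The 7 liver genes summed to 22.0 to 27.3 FPKM in replicates 1 and 2 and to 80.7 to 191 FPKM in replicates 3 to 5, and their part in the levels of the locus was not tested. Trbj2-6 kept its call with the set as a term of the fit (log2 fold change 0.38, limma unadjusted p = 0.0023, adjusted p = 0.822).

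**Figure D5:**
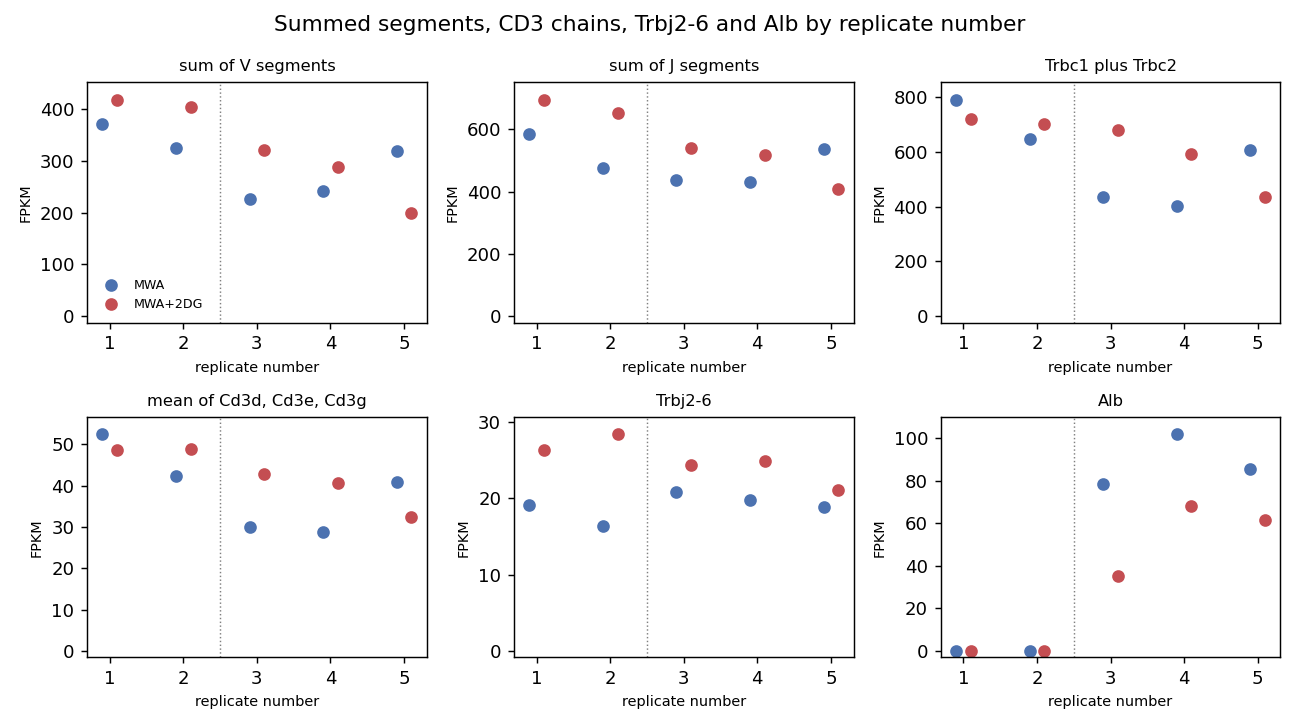
FPKM by replicate number for the summed V segments, the summed J segments, Trbc1 plus Trbc2, the mean of Cd3d, Cd3e and Cd3g, Trbj2-6 and Alb, with MWA and MWA+2DG as colours and a dotted line between replicates 2 and 3. The sums and CD3 are mostly higher left of the line, Alb is at or below 0.05 FPKM there, and Trbj2-6 separates the groups at every replicate number.

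C gene RNA and CD3 RNA kept a nearly constant ratio, from 13.4 to 15.8 over the 10 libraries. The summed C genes divided by the mean of Cd3d, Cd3e and Cd3g, the CD3 chains that carry the receptor to the surface, gave 14.6 ± 0.865 in MWA+2DG and 14.7 ± 0.533 in MWA (SD, n = 5), and their ratio to Trac, the constant gene of the alpha chain, was 4.80 ± 0.203 and 4.88 ± 0.601. Each ratio differed between the groups by less than its spread. Relative to CD3, the summed V segments stood at 7.53 ± 0.955 in MWA+2DG and 7.69 ± 0.475 in MWA. That ratio ran from 6.19 to 8.59 and turned direction between the replicate sets. MWA+2DG was higher by 1.05 in replicates 1 and 2 and differed by -0.970 in replicates 3 to 5. The summed J segments divided by the summed C genes ran from 0.739 to 1.07 and also turned, with differences of 0.208 and -0.118. Over the 10 libraries the genes outside the receptor loci with FPKM most like that of Trbc2 were Lsp1 (Pearson r = 0.978), Cd3d (0.977), Cd3g (0.971), Lat (0.968) and Thy1 (0.966), given as a description of libraries that share the same sets. Within the locus the same measure was 0.979 for Trbv13-3, 0.948 for Trbc1, 0.282 for Trbj2-6 and 0.0808 for Trbv3.

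All 8 genes of the receptor complex list had log2 fold changes above 0, with a median of 0.17, where 52.6% of all tested genes lay above 0. Of the list 1 gene was called higher, Cd8a, the alpha chain of the CD8 coreceptor, and of all tested genes 0.952% were. Cd8a measured 39.3, 27.6, 25.2, 33.8 and 28.3 FPKM in MWA and 38.4, 37.7, 38.6, 36.6 and 35.3 FPKM in MWA+2DG, so that MWA replicate 1 exceeded every MWA+2DG library. The log2 fold change was 0.28 for Cd8a, 0.23 for Cd4, the coreceptor of helper T cells, and from 0.13 to 0.21 for Cd3d, Cd3e, Cd3g, Cd247 and Trac, with standard errors from 0.11 to 0.21.

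Over all tested genes 52.6% had log2 fold changes above 0 and 0.952% were called higher. Among 22 genes of proximal receptor signaling 20 had log2 fold changes above 0 and 3 were called higher. These were Prkcq, protein kinase C theta, which acts downstream of the receptor (log2 fold change 0.45, standard error 0.14), Grap2, an adaptor (0.30, 0.13), and Themis, a signaling protein of the T cell lineage (0.26, 0.11). Prkcq measured 14.2, 12.1, 9.04, 10.04 and 8.47 FPKM in MWA and 17.3, 16.8, 14.98, 12.7 and 13.02 FPKM in MWA+2DG. MWA replicate 1 exceeded MWA+2DG replicates 4 and 5, so the groups overlapped.

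Of the genes of V(D)J recombination, those specific to lymphocyte development were near 0. Rag1 and Rag2, the recombinase, stayed at or below 0.061 FPKM in every library, Ptcra, the surrogate alpha chain of immature thymocytes, at or below 0.147 FPKM, and Dntt, which adds untemplated bases at the joints, at or below 0.964 FPKM. The other 7 of the 11 listed genes, which repair breaks in all cells, had means from 2.47 FPKM (Xrcc4) to 10.9 FPKM (Xrcc5), and 0 of them were called. Of the 11 genes next to the locus 1 was tested, Ephb6, with a log2 fold change of 0.17 and a standard error of 0.15.

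Markers of other cells were read beside the locus, since the beta chain genes are measured against all RNA of the node. Over all tested genes 52.6% had log2 fold changes above 0, 0.952% were called higher and 1.87% lower. Of these 0.0% passed an adjusted p of 0.05 in the limma test. Of 10 B cell genes all had log2 fold changes below 0 and 0 were called, and their sum ranged from 1527 to 1767 FPKM in MWA+2DG and from 1636 to 1847 FPKM in MWA. Of 6 tested plasma cell genes 2 were called lower (Mzb1 and Xbp1). The plasma cell sum ranged from 229 to 498 FPKM in MWA+2DG and from 308 to 818 FPKM in MWA, and its direction turned between the replicate sets: MWA+2DG was higher by 63.9 FPKM in replicates 1 and 2 and differed by -432 FPKM in replicates 3 to 5. Of 10 macrophage and myeloid genes 4 were called lower (Lyz2, Csf1r, S100a8 and S100a9). The myeloid sum ranged from 1159 to 1668 FPKM in MWA+2DG and from 1644 to 2529 FPKM in MWA. The T cell identity list repeats genes of the receptor complex and signaling lists, among them Cd3d, Cd3e, Cd3g, Cd247 and Themis. Of its 15 genes 4 were called higher (Tcf7, Lef1, Trat1 and Themis). The part of these cells in the members' values was not tested.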

How the data were processed

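RNA of 10 libraries (5 a group) was analysed. The deposited FPKM values were made by the authors, who trimmed reads, aligned them with HISAT2 and quantified genes with StringTie; the submitters' processing notes name cutadapt 1.9, HISAT2 2.0.4, UMI-tools, StringTie 1.3.4d and build mm9. The use of UMI-tools, the strand setting and the mapped depth are not stated, and no counting interval can be had. The 33643 identifiers of each library were matched to symbols (33541 matched). Values were tested as log2(FPKM + 1) with limma 3.58.1 (R 4.3.3) over the 13334 genes averaging 1 FPKM or more, with Benjamini-Hochberg adjustment. This fold change understates changes of low genes. The sums, ratios and shares are of FPKM. Shares were compared by exact two-sided permutation over the 252 arrangements of the libraries. The script was tested on simulated data.

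Genes named were Trbc1, Trbc2, the D segments, the 5 highest V segments, the V segments with the 3 largest rises and falls in share, the superantigen list, the 2 highest J segments of each cluster, any member with limma p below 0.05, the CD3 chains with Trac, and called list genes. Trbj1-5 was named after its values were seen. The members, lists and replicate sets were chosen with earlier results of these data known. Libraries are taken as separate mice, as far as the study's methods go, and p-values measure the spread between these libraries. Sequences are from GENCODE transcripts of GRCm38, and motif shares from RefSeq promoters. The notes' build differs from that reference, so no coordinates are given. A listed gene is not reported here and was left out of the lists.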

Additional observations from a re-analysis of the deposited data

Results flagged for a closer look

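Of 114 groups of 5 values examined, 5 held a library far from its group, and chance gives about 1 group in 20. Trbv3 accounted for 2 of them: its FPKM in MWA+2DG replicate 1 was 8.16, where the next library had 5.08, and its share in MWA replicate 4 was 3.65%, where the next had 1.84%. MWA replicate 4 also had a Trbv16 share of 1.39%, with the next at 1.01%, and the lowest portion of the 5 highest V segments, 47.5% against 51.2% to 51.7% in the other MWA libraries. The share of Trbv15 in MWA replicate 3 was 0.779%, with the next at 0.546%.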

How the results depend on the processing

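The count of members called higher was 2 (Trbj1-5 and Trbj2-6) after rescaling to a summed FPKM of 1000000, quantile normalization, median ratio scaling or a replicate block, and ran from 1 to 3 without 1 library, while 0 were called lower in all of these. Trbj2-6 was called under every alternative run. Equal replicate numbers did not pair the libraries: the correlations of their deviations were 0.331, 0.501, 0.11, 0.0334 and 0.151, and 1 of 5 replicate numbers was the best match of its own. The replicate block gave an adjusted p of 0.834 for Trbj2-6, and the range over its alternatives was 0.666 to 1.00. Rescaling moved the all-gene median log2 fold change to 0.07 and that of the members to 0.19. The log2 fold change of Trbv1 became 0.0275 after rescaling and 0.0021 after quantile normalization, and that of Trbv3 0.0196 after rescaling. On the scale of log2 shares Trbv26 differed by -0.17 and Trbv16 by -0.0062. The cause of these reversals was not tested.

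Without 1 library, log2 fold changes ranged from -0.13 to 0.11 (Trbv1), -0.045 to 0.22 (Trbv31), -0.12 to 0.20 (Trbv19), -0.18 to 0.12 (Trbv3), -0.12 to 0.18 (Trbv12-1), -0.12 to 0.16 (Trbv12-2), -0.0431 to 0.17 (Trbv16), -0.0055 to 0.19 (Trbj1-2), -0.0437 to 0.17 (Trbd1) and -0.10 to 0.19 (Trbd2). Share differences ranged, in percentage points, from -0.149 to 0.955 (Trbv13-2), -0.6004 to 0.185 (Trbv31), -0.472 to 0.134 (Trbv3), -0.0076 to 0.0882 (Trbv26), -0.0671 to 0.0435 (Trbv12-1), -0.0189 to 0.0740 (Trbv15), -0.0516 to 0.0900 (Trbv16) and -1.11 to -0.660 (Trbv1). The summed V, D, J and C segments differed between groups by 2.28% to 20.7%, -5.32% to 11.1%, 7.31% to 21.8% and 0.945% to 19.8%.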
